A study of Mus musculus with 9 samples.

Results

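The enzymes that make activated hexosamines and build N-linked glycans were followed as 1 set of 46 genes. These were picked by name for their place in the pathway, out of 53077 genes listed for each sample. This choice, and that of further gene lists below, was made with earlier results of these data known. Shares set against all genes below are therefore descriptions. The 46 genes fall into 4 steps. Sugar nucleotide supply has 12, the lipid-linked oligosaccharide 16, the oligosaccharyltransferase complex 8, and trimming and Golgi extension 10. Of the 46, 44 had enough counts to be tested among 13834 genes, and *Gfpt2* and *Tusc3* did not.

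RNA was sequenced in bulk from 9 samples of 5TGM1-Cas9, a mouse multiple myeloma line that carries Cas9 constitutively from a lentivirus. Control cells (genotype WT) received a gRNA against the *Rosa26* locus, 1 population received an *Slc2a1* gRNA (genotype *Slc2a1* KO), and the other deleted population received gRNAs to all of *Slc2a1*, *Slc2a3*, *Slc2a5*, *Slc2a6* and also *Slc2a8* (genotype Slc2a1/2a3/2a5/2a6/2a8 KO, called 5-gRNA cells here), with 3 biological replicates each. All 3 populations thus carry Cas9 and a transduced gRNA vector, and the targeted genes encode facilitative hexose transporters. For the 5-gRNA cells, cells that carried the reporters of the *Slc2a3*, *Slc2a5*, *Slc2a6* and *Slc2a8* gRNA vectors were sorted and expanded first. The *Slc2a1* gRNA was added last. No such sort is described for the sequenced cells of the other populations. In the 5-gRNA cells, effects of the added deletions thus cannot be told apart from those of the extra vectors, sorting and expansion. Both deleted populations are mixtures and not clones, so edited and unedited cells were sequenced together. The labels do not say whether replicates were separate cultures, and if they were not, the p-values below measure technical spread alone.

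N-glycosylation begins in the cytosol, where fructose-6-phosphate is turned into UDP-N-acetylglucosamine by the hexosamine pathway and into GDP-mannose by the mannose pathway. These donors, with UDP-glucose, are used one sugar at a time to build an oligosaccharide on the lipid dolichol at the endoplasmic reticulum (ER), and the oligosaccharyltransferase moves the finished tree onto asparagines of proteins entering the ER. Glucosidases and mannosidases then trim it, and Golgi enzymes add new branches. Plasma cells and the myelomas derived from them secrete large amounts of glycosylated immunoglobulin and keep an extensive ER.

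Each library held between 21838805 and 30537105 estimated counts, and the 46 genes took 0.514% to 0.722% of them. In 5-gRNA replicate 1, mitochondrial genes took 11.1% of the counts, against 5.84% and 4.91% in the other 5-gRNA replicates. It differed more from them (chi-square per degree of freedom of 71.4 and 106) than they did from each other (22.4). Control replicate 3 likewise differed more from control replicates 1 and 2 (59.6 and 51.7) than they did from each other (20.7). The mitochondrial share was 8.01%, 8.01% and 4.84% in the control replicates and 8.69%, 10.5% and 6.57% in the same-numbered *Slc2a1* gRNA replicates, and its part in the results was not tested. *Slc2a1* was at 59.5, 26.9 and 32.9 TPM (transcript abundance scaled for gene length and library size) in the control replicates, 37.1, 28.3 and 31.4 in *Slc2a1* gRNA cells and 24.1, 31.5 and 19.1 in 5-gRNA cells. A gRNA edits DNA and need not lower the transcript, so these values do not test the labels: the log2 fold change of *Slc2a1* against control was -0.21 (adjusted p = 0.544) with the *Slc2a1* gRNA and -0.66 (adjusted p = 0.0290) with the 5 gRNAs. In the 5-gRNA cells *Slc2a8* fell by 1.22 (adjusted p = 0.000309) and *Slc2a6* fell by 0.67 (adjusted p = 0.0366) on the log2 scale, *Slc2a3* had 0.27 (adjusted p = 0.259), and *Slc2a5* rose from 6 to 10 counts per library in control to 29 to 51 (adjusted p = 0.00478). Of 8 plasma cell markers, 7 had at least 10 TPM in every sample, while *Tnfrsf17* reached at most 1.36 TPM. Of 16 markers of B cells, T cells, macrophages and fibroblasts, 13 stayed under 1 TPM in every sample, and *Col1a2* and *Dcn* were at 0 throughout. *Col1a1* and *Cd2* reached 1.45 and 2.90 TPM. *Cd68* was at 29.9 to 97.2 TPM, and its mean was 79.3 TPM in control, 40.9 TPM in *Slc2a1* gRNA and 38.4 TPM in 5-gRNA cells; its part in the results was not tested.

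In control gRNA cells, 44 of the 46 genes were expressed at a mean of at least 1 TPM, a unit that divides by transcript length and so allows genes to be compared. The transferase complex held 4 of the 6 most abundant transcripts, with *Rpn2* at 355 ± 56.3 TPM (SD, n = 3) and *Ddost* at 262 ± 28.5 TPM. Outside the complex, *Dpm3*, a small subunit that anchors dolichol-phosphate-mannose synthase in the membrane, stood at 280 ± 13.4 TPM, and *Ganab*, the catalytic subunit of ER glucosidase II, at 204 ± 17.6 TPM. The lowest expressed members were *Alg11*, a mannosyltransferase, at 3.92 ± 0.753 TPM and *St6gal1*, the α2,6-sialyltransferase of the Golgi, at 3.97 ± 1.47 TPM, which do not differ beyond their spread. *Gfpt2* had 0 to 2 counts and *Tusc3* 0 to 3 counts per library.

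**Figure D1:**
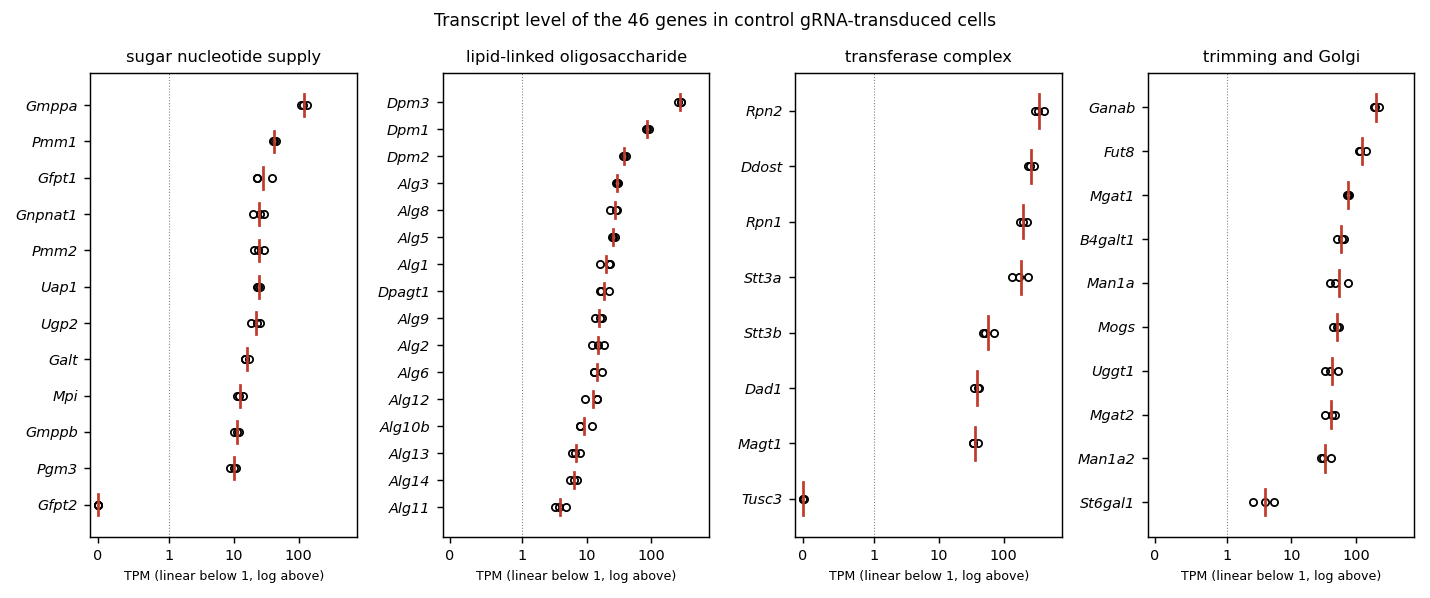
TPM of each of the 46 genes in the 3 control gRNA replicates (open circles) with their mean (red bar), by pathway step; the axis is linear below 1 TPM and logarithmic above. *Rpn2*, at a mean of 355 TPM, is the most abundant, and *Gfpt2* and *Tusc3* lie at or near 0.

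Several steps can be carried out by alternative or partner proteins, and 1 of the pair often dominated. *Gfpt1* supplied 99.856% to 100% of the summed TPM of *Gfpt1* and *Gfpt2*, the isoforms of the enzyme that commits fructose-6-phosphate to hexosamine synthesis. *Magt1* likewise took 99.5531% to 100% of *Magt1* and *Tusc3*, the alternative oxidoreductase subunits of the STT3B form of the transferase. *Stt3a*, the catalytic subunit that acts during translocation, made up 72.6% to 81.9% of *Stt3a* and *Stt3b* over the 9 samples. The catalytic subunit of GDP-mannose pyrophosphorylase, *Gmppb*, made up 5.70% to 9.51% of *Gmppb* and its regulatory partner *Gmppa*. *Pmm2*, the phosphomannomutase whose loss causes the commonest congenital disorder of glycosylation in people, made up 27.9% to 41.1% of *Pmm1* and *Pmm2*. The ranges of the 3 populations overlapped for each of these pairs, and for *Man1a2* and *Man1a*. *Alg13* as a share of *Alg13* and *Alg14* was an exception. It was 47.8% to 54.8% in control, 41.8% to 50.3% in *Slc2a1* gRNA cells and 38.8% to 47.0% in 5-gRNA cells. The 5-gRNA range thus lay below the control range, a difference that was not tested.

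Summed over the members of each step, the transferase complex had 988, 1085 and 1334 TPM in the control replicates, 845, 811 and 1027 in *Slc2a1* gRNA cells and 754, 1028 and 1058 in 5-gRNA cells. Sugar nucleotide supply summed to 317, 311 and 370 TPM in control, 258, 241 and 275 in *Slc2a1* gRNA cells and 240, 296 and 291 in 5-gRNA cells, so both deleted populations lay below the control range. The same held for the lipid-linked oligosaccharide step, with 592 to 624 TPM in control, 458 to 555 in *Slc2a1* gRNA cells and 472 to 587 in 5-gRNA cells, while trimming and Golgi extension overlapped, with 622 to 782, 450 to 628 and 417 to 641. TPM ran low in the deleted populations in general: the median log2 difference in TPM over all tested genes was -0.16 with the *Slc2a1* gRNA and -0.07 with the 5 gRNAs. For that reason, changes below are given on counts normalised by TMM, a scaling that centres the median gene near 0, as normalised CPM (counts scaled for library size alone, which do not allow levels of different genes to be compared).

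With the *Slc2a1* gRNA alone, 5 of the 44 tested members passed an adjusted p of 0.05 in edgeR's quasi-likelihood test, or 11.4%, against 4.64% of all tested genes. Of these, 1 rose (*Alg11*) and 4 fell (*Pgm3*, *Uap1*, *Alg12* and *Ganab*), where 2.25% of all genes rose and 2.39% fell. With the 5 gRNAs, 12 of 44 passed, or 27.3%, against 15.9% of all tested genes. Here 3 rose (*Gnpnat1*, *Mgat2* and *Alg11*) and 9 fell (*Uap1*, *Mpi*, *Gmppa*, *Gmppb*, *Galt*, *Alg3*, *Alg12*, *Dad1* and *Ganab*), with a background of 8.49% rising and 7.44% falling. The median log2 fold change of the 44 members was -0.14 with the *Slc2a1* gRNA and -0.15 with the 5 gRNAs, while both medians over all genes were within 0.01 of 0. Both comparisons use the same control samples, so their shared calls are not independent of each other. In bulk RNA, fewer cells that express a gene and less RNA per cell cannot be told apart.

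**Figure D2:**
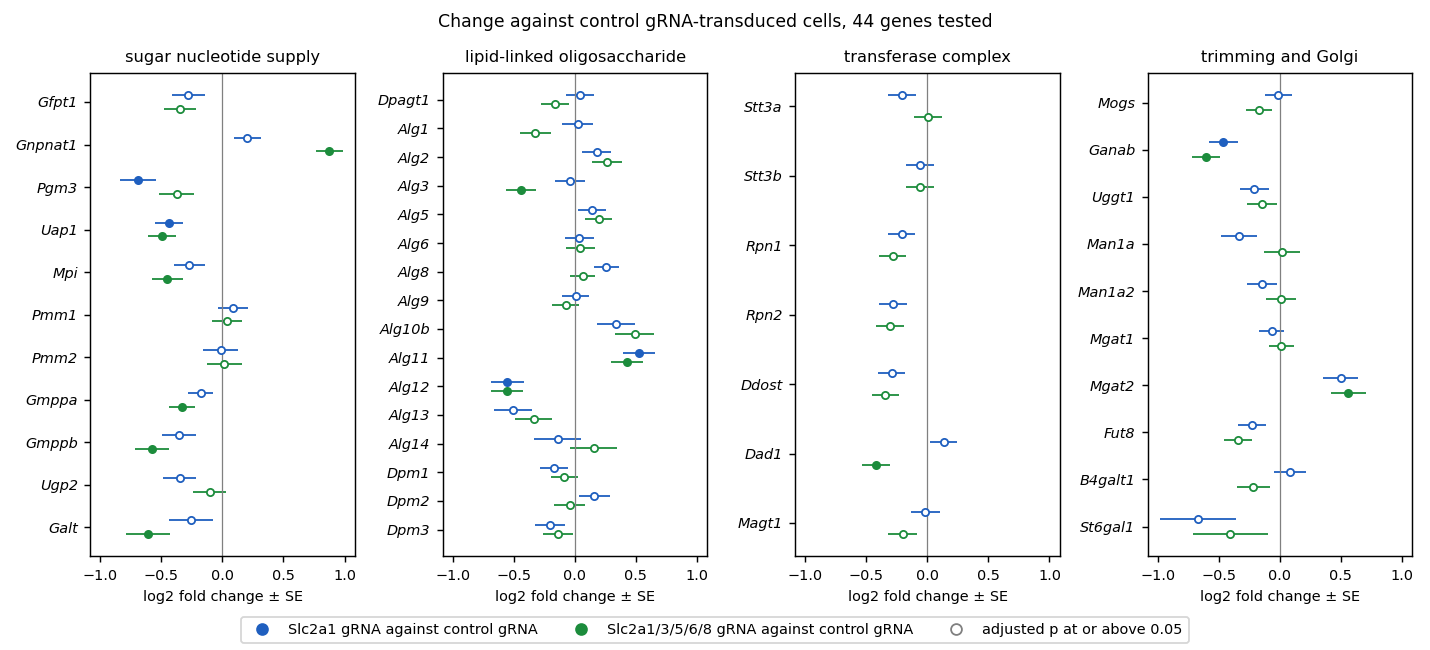
Log2 fold change with its standard error for the 44 tested genes against control gRNA cells, by pathway step, for the *Slc2a1* gRNA (blue) and the 5 gRNAs (green). Filled circles mark an adjusted p under 0.05: 5 genes with the *Slc2a1* gRNA and 12 with the 5 gRNAs, and most of the filled circles lie to the left of 0.

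Sugar nucleotide supply held 6 of the 12 members that changed with the 5 gRNAs, 1 of 11 tested rising and 5 falling (54.5%, against 15.9% of all tested genes). With the *Slc2a1* gRNA none of the 11 rose and 2 fell (18.2%, against 4.64%). The 4 enzymes that lead to UDP-N-acetylglucosamine differed in direction. *Gnpnat1*, which acetylates glucosamine-6-phosphate (chr14:45376334-45404913, minus strand, GRCm38), had 45.3, 50.2 and 51.1 normalised CPM in control, 56.1, 54.0 and 58.9 in *Slc2a1* gRNA cells and 96.8, 78.6 and 94.5 in 5-gRNA cells. All 3 samples of 5-gRNA cells lay above every other sample. *Gnpnat1* rose 1.84-fold against control (log2 fold change 0.88, SE 0.11, adjusted p = 0.000593) and 1.60-fold against *Slc2a1* gRNA cells (0.67, SE 0.11, adjusted p = 0.0102), but its value with the *Slc2a1* gRNA alone was 0.20 (adjusted p = 0.305). *Gnpnat1* shares 83.5% of its exonic bases with other genes, among them *Styx* on the opposite strand, and the library kit does not mark strand, so their reads cannot be fully told apart. *Styx* itself rose with the 5 gRNAs (0.44, SE 0.12, adjusted p = 0.0321).

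Both enzymes that act after *Gnpnat1* fell in at least 1 comparison. *Pgm3*, the mutase that follows it (chr9:86554377-86571842, minus strand), had 21.3, 25.6 and 24.7 normalised CPM in control, 12.02, 16.7 and 15.7 in *Slc2a1* gRNA cells and 19.9, 19.8 and 15.5 in 5-gRNA cells. Both deleted populations lay below the control range. *Pgm3* fell with the *Slc2a1* gRNA (-0.69, SE 0.15, adjusted p = 0.0246), and its value with the 5 gRNAs was -0.37 (SE 0.14, adjusted p = 0.0987), while the difference between the 2 deleted populations was 0.32 (adjusted p = 0.268). Of its exonic bases, 28.3% overlap *Dop1a*, which had -0.16 (adjusted p = 0.379) with the *Slc2a1* gRNA. *Uap1*, the last enzyme, which joins the sugar to UTP (chr1:170141938-170174957, minus strand), had 53.6, 55.1 and 52.5 in control, 37.9, 40.0 and 41.1 in *Slc2a1* gRNA cells and 42.4, 39.2 and 33.0 in 5-gRNA cells. Every control value exceeded every other value, and *Uap1* fell in both comparisons, by 0.44 on the log2 scale (SE 0.11, adjusted p = 0.0453) with the *Slc2a1* gRNA and by 0.49 (SE 0.11, adjusted p = 0.0122) with the 5 gRNAs. *Gfpt1*, the entry enzyme, had values of -0.28 (adjusted p = 0.243) and -0.35 (adjusted p = 0.0956), below the control range in both.

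In the mannose branch, 3 genes fell with the 5 gRNAs. *Gmppb*, which makes GDP-mannose (chr9:108049242-108052801, plus strand), had 17.5, 21.0 and 18.5 normalised CPM in control and 13.4, 13.5 and 11.4 in 5-gRNA cells, against 17.0, 13.8 and 13.9 in *Slc2a1* gRNA cells. It fell by 0.58 on the log2 scale (SE 0.14, adjusted p = 0.0167), and 33.6% of its exonic bases overlap *Rnf123* and *Gm20529*; *Rnf123* had -0.15 (adjusted p = 0.355). *Gmppa*, its regulatory partner (chr1:75435930-75443179, plus strand), had 87.6, 92.8 and 91.5 in control, 83.9, 79.6 and 77.1 in *Slc2a1* gRNA cells and 79.7, 72.0 and 64.8 in 5-gRNA cells. Both deleted populations lay below control, and *Gmppa* fell with the 5 gRNAs by 0.33 (SE 0.11, adjusted p = 0.0498), just under the threshold, and its call was lost without the replicate block (adjusted p = 0.0522), without a filter on low counts and with only the 2 groups fitted. *Mpi*, which links fructose-6-phosphate to mannose-6-phosphate (chr9:57544256-57552763, minus strand), had 18.3, 23.7 and 17.1 in control, 16.7, 16.8 and 15.2 in *Slc2a1* gRNA cells and 14.7, 15.1 and 13.2 in 5-gRNA cells. It fell with the 5 gRNAs by 0.45 (SE 0.13, adjusted p = 0.0332). The mutases *Pmm1* and *Pmm2* had log2 fold changes between -0.01 and 0.09 in both comparisons, with an adjusted p of at least 0.734.

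*Galt*, which interconverts UDP-glucose and UDP-galactose with their sugar phosphates in galactose metabolism (chr4:41755228-41758695, plus strand), had 13.0, 12.3 and 8.997 normalised CPM in control, 10.2, 8.30 and 9.63 in *Slc2a1* gRNA cells and 7.94, 8.82 and 5.74 in 5-gRNA cells. The 5-gRNA samples lay below all control samples, and *Galt* fell by 0.61 on the log2 scale (SE 0.18, adjusted p = 0.0384), a call that was lost without the replicate block (adjusted p = 0.0576). Of its exonic bases, 26.7% overlap other annotation, so part of its count is uncertain in libraries that do not mark strand. *Ugp2*, which makes UDP-glucose, had -0.35 (adjusted p = 0.148) with the *Slc2a1* gRNA and -0.11 (adjusted p = 0.626) with the 5 gRNAs.

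Of the 16 members of the lipid-linked oligosaccharide step, 2 passed with the *Slc2a1* gRNA (1 rising, 1 falling), or 12.5% against 4.64% of all tested genes. With the 5 gRNAs 3 passed (1 rising, 2 falling), or 18.8%, which is near the 15.9% of all tested genes. *Alg12*, which adds a mannose inside the ER lumen (chr15:88805244-88819318, minus strand), had 29.9, 21.3 and 26.3 normalised CPM in control, 17.0, 17.2 and 18.2 in *Slc2a1* gRNA cells and 19.8, 17.3 and 15.6 in 5-gRNA cells. Control values were above all others, and *Alg12* fell by 0.55 (SE 0.13, adjusted p = 0.0375) with the *Slc2a1* gRNA and by 0.56 (SE 0.13, adjusted p = 0.0168) with the 5 gRNAs. *Alg3*, which adds the first lumenal mannose (chr16:20605374-20611735, minus strand), had 42.4, 40.1 and 34.7 in control, 47.1, 33.5 and 34.6 in *Slc2a1* gRNA cells and 30.1, 25.7 and 30.5 in 5-gRNA cells. It fell with the 5 gRNAs by 0.44 (SE 0.12, adjusted p = 0.0321; 0.0562 without the replicate block), and its value with the *Slc2a1* gRNA was -0.04 (adjusted p = 0.897). *Alg11*, which adds mannoses on the cytosolic face (chr8:22060721-22071627, plus strand), moved the other way, with 18.4, 21.6 and 22.8 in control, 33.9, 26.3 and 29.96 in *Slc2a1* gRNA cells and 25.1, 29.1 and 30.3 in 5-gRNA cells. It rose by 0.53 (SE 0.13, adjusted p = 0.0448) and by 0.43 (SE 0.13, adjusted p = 0.0470), and with total count normalisation these values were 0.43 (adjusted p = 0.0901) and 0.38 (adjusted p = 0.0892), so both calls are lost. The other 13 members, from *Dpagt1*, which starts the tree, to the glucosyltransferase *Alg10b*, had values between -0.51 (*Alg13*) and 0.34 (*Alg10b*) with the *Slc2a1* gRNA, and between -0.34 (*Alg13*) and 0.49 (*Alg10b*, adjusted p = 0.0524) with the 5 gRNAs.

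The promoters of these genes were read from RefSeq's tables (GRCm38.p6, 250 bases before to 50 after each start), which held 49 promoters of 39 members. *Gnpnat1*, *Gmppb*, *Dpagt1*, *Alg2*, *Alg11*, *Tusc3* and *Man1a2* had no entry and were not searched. Searched on both strands, the ER stress response element (ERSE: CCAAT, then 9 bases of any kind, then CCACG) was in 1 of the 49, that of *Alg12*, and in 0.119% of 32851 promoters. The E-box CACGTG was in 4 of 49 (8.16%) against 7.15% of all, in *Galt*, *Alg1*, *Dpm2* and *Magt1*. ERSE-II (ATTGG, then 1 base, then CCACG; in 0.0365% of all promoters), the unfolded protein response element TGACGTGG (0.676%) and the composite element of ATF4 and CHOP, TGATGNAAT (0.965%), were in none of the 49. None of these motifs overlaps another in a member's promoter. The promoter of *Alg12*, the one that holds the ERSE, is shown with the motif in capitals. It is on the minus strand at chr15:88819269-88819568, with the motif starting 220 bases before the start.
Alg12: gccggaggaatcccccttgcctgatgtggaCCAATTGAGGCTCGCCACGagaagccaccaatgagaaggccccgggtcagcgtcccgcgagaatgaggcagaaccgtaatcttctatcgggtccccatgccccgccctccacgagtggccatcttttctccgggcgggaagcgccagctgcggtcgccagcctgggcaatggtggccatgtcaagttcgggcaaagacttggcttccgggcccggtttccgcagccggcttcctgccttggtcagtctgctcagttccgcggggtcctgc
A match is a description of the sequence and was not tested against the change in expression.

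Of the transferase complex, none of the 7 tested subunits passed with the *Slc2a1* gRNA, and 1 fell with the 5 gRNAs (14.3%, near the 15.9% of all tested genes). *Dad1*, the small membrane subunit (chr14:54235479-54254104, minus strand), had 29.7, 25.8 and 24.3 normalised CPM in control, 31.6, 29.3 and 26.4 in *Slc2a1* gRNA cells and 20.1, 18.8 and 20.4 in 5-gRNA cells. The 5-gRNA samples lay below all 6 others. *Dad1* fell against control by 0.42 (SE 0.11, adjusted p = 0.0275) and against *Slc2a1* gRNA cells by 0.55 (SE 0.11, adjusted p = 0.0306), whereas its value with the *Slc2a1* gRNA was 0.13 (adjusted p = 0.529). The difference between the deleted populations did not pass with only those 2 groups fitted. The subunits with the highest control TPM, *Rpn2*, *Ddost* and *Rpn1*, had values of -0.28, -0.29 and -0.21 with the *Slc2a1* gRNA and -0.31, -0.34 and -0.28 with the 5 gRNAs, and their samples in both deleted populations lay below the control range. Their adjusted p were 0.167, 0.153 and 0.283 in the first comparison and 0.0865, 0.0583 and 0.0957 in the second. Without 5-gRNA replicate 1, *Rpn2* (adjusted p = 0.0471) and *Ddost* (0.0162) passed with the 5 gRNAs, and *Dad1* did not. With DESeq2, *Rpn2*, *Ddost* and *Rpn1* all passed in that comparison. The catalytic subunits *Stt3a* and *Stt3b* had 0.0046 and -0.06 with the 5 gRNAs, with overlapping groups, and *Magt1* had -0.20 (adjusted p = 0.259).

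**Figure D3:**
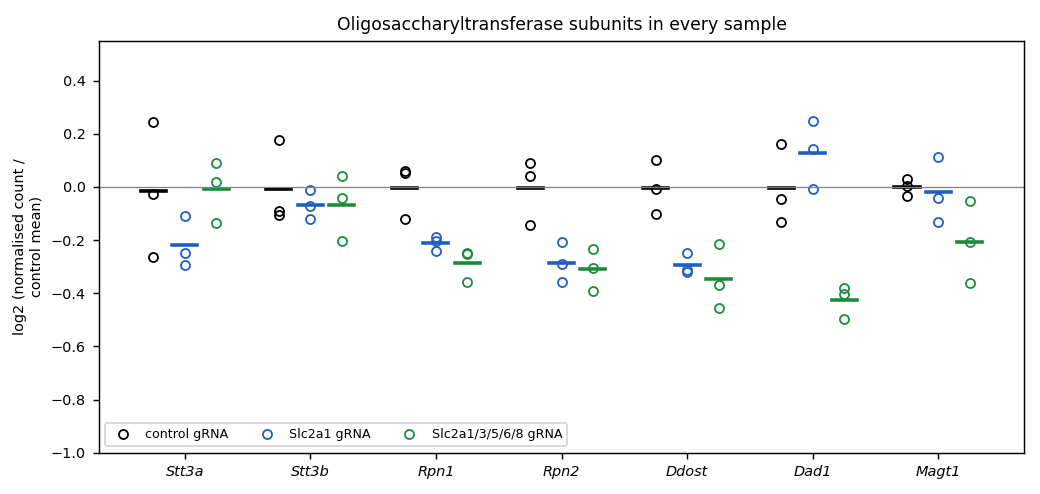
Log2 ratio of each sample's normalised count to the control mean for the 7 tested oligosaccharyltransferase subunits, with circles for samples and bars for means. The 5-gRNA samples of *Dad1* lie below its other samples, whereas *Rpn1*, *Rpn2* and *Ddost* are low in both deleted populations and *Stt3a* and *Stt3b* overlap.

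Of the 10 members of trimming and Golgi extension, 1 passed with the *Slc2a1* gRNA (10%, against 4.64% of all tested genes) and 2 with the 5 gRNAs (20%, near the 15.9% of all tested genes). *Ganab* (chr19:8898071-8916672, plus strand), which removes the inner glucoses so that a glycoprotein can leave the calnexin and calreticulin cycle, had 728, 789 and 737 normalised CPM in control, 564, 503 and 569 in *Slc2a1* gRNA cells and 498, 533 and 455 in 5-gRNA cells. Every control sample exceeded every deleted sample. *Ganab* fell by 0.46 (SE 0.12, adjusted p = 0.0429) with the *Slc2a1* gRNA and by 0.60 (SE 0.12, adjusted p = 0.00585) with the 5 gRNAs, and the 2 deleted populations differed by -0.14 (adjusted p = 0.555). *Mgat2*, which starts the second antenna of complex glycans (chr12:69184157-69186770, plus strand), had 91.0, 122 and 112 in control, 166, 148 and 143 in *Slc2a1* gRNA cells and 155, 136 and 190 in 5-gRNA cells, so both deleted populations lay above control. *Mgat2* rose with the 5 gRNAs by 0.56 (SE 0.15, adjusted p = 0.0224), and its value with the *Slc2a1* gRNA was 0.50 (SE 0.15, adjusted p = 0.0710). *Mgat1*, which acts just before *Mgat2*, had -0.06 and 0.01, and *Fut8*, which adds the core fucose, had -0.23 and -0.34 (adjusted p = 0.278 and 0.0615). The glucosidase I gene *Mogs*, the folding sensor *Uggt1*, the mannosidases *Man1a* and *Man1a2* and the galactosyltransferase *B4galt1* had values between -0.34 (*Man1a*, adjusted p = 0.201) and 0.08 with the *Slc2a1* gRNA and between -0.22 and 0.02 with the 5 gRNAs. Among the tested members *St6gal1* had the highest SD relative to its mean in control, with 9.49 to 24.2 in control, 6.16 to 12.2 in *Slc2a1* gRNA cells and 9.25 to 13.9 in 5-gRNA cells.

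**Figure D4:**
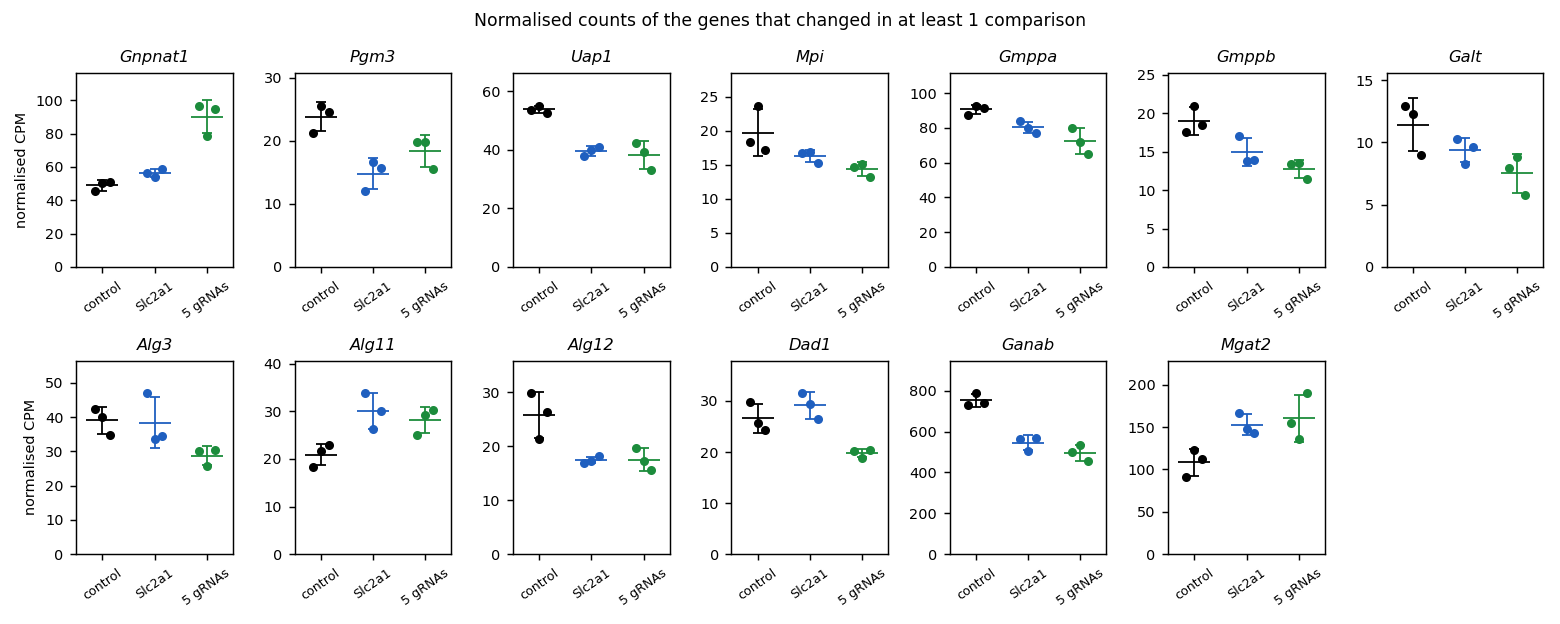
Normalised CPM of the 13 genes that changed in at least 1 comparison, with a point per sample, the mean as a horizontal bar and the SD as whiskers, n = 3. *Gnpnat1*, *Alg11* and *Mgat2* are higher in 5-gRNA cells than in control, and the other 10 are lower in at least 1 deleted population.

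Compared directly with *Slc2a1* gRNA cells, 5-gRNA cells differed in 2 of 44 members, or 4.55%, where 2.31% of all tested genes passed (1.36% rising, 0.947% falling). These were *Gnpnat1*, which rose, and *Dad1*, which fell, both described above. The other 42 had log2 fold changes between -0.40 (*Alg3*, adjusted p = 0.106) and 0.35 (*Man1a*, adjusted p = 0.214). The groups of samples did not overlap for 17 of 44 members with the *Slc2a1* gRNA against control (26.2% of all tested genes), 22 of 44 with the 5 gRNAs against control (34.2%) and 7 of 44 between the deleted populations (20.9%).

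These calls rest on few samples. With any 1 of the 3 control samples left out, or *Slc2a1* gRNA replicate 1 or 2, none of the 44 members passed with the *Slc2a1* gRNA, although 8 to 11 then had an unadjusted p under 0.05. In these fits 0.0773% to 0.507% of all tested genes passed, so a count of 0 is no result about the members. The highest adjusted p were 0.159 for *Pgm3*, 0.229 for *Uap1*, 0.227 for *Alg12*, 0.261 for *Ganab* and 0.270 for *Alg11*, which was also lost without *Slc2a1* gRNA replicate 3. With the 5 gRNAs, the count fell from 12 to 3 without control replicate 1, 4 without control replicate 2, 2 without control replicate 3 and 4 without 5-gRNA replicate 3, while the share of all tested genes fell from 15.9% to 4.45%, 6.99%, 5.16% and 6.13%. Without 5-gRNA replicate 1, the sample of its group that stood apart, 13 members passed (16.6% of all tested genes). *Galt*, *Alg3* and *Dad1* were not among them, whereas *Pgm3* (adjusted p = 0.0176), *Rpn2* (0.0471) and *Ddost* (0.0162) were. *Gnpnat1* and *Ganab* passed with the 5 gRNAs whichever of the 9 samples was left out, with an adjusted p of at most 0.00989 and 0.0497. The other 10 each lost their call without at least 1 sample, with an adjusted p of at most 0.273. Between the deleted populations, *Gnpnat1* was lost without *Slc2a1* gRNA replicate 2 (adjusted p = 0.0661), and *Dad1* was lost when any of 7 of the 9 samples was left out (up to 0.193).

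Genes that act beside these enzymes were read from the same fit. Of 60 tested genes of 5 further lists, 6 passed with the *Slc2a1* gRNA (3 rising, 3 falling) and 12 with the 5 gRNAs (4 rising, 8 falling), or 10% and 20%, where 4.64% and 15.9% of all tested genes passed. Among 24 enzymes of sugar and nucleotide sugar metabolism, *Hk2*, an inducible hexokinase, rose by 1.06 (adjusted p = 0.0103) with the *Slc2a1* gRNA and by 0.60 (adjusted p = 0.0352) with the 5 gRNAs, and *Pgm1*, a phosphoglucomutase, rose by 0.80 (adjusted p = 0.0131) and 0.50 (adjusted p = 0.0289). *Nans*, which makes sialic acid phosphate, fell with the 5 gRNAs by 0.47 (adjusted p = 0.0191), and *Cmas*, which activates sialic acid, also passed.

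Of 13 genes of glycoprotein folding and disposal, 2 fell with the *Slc2a1* gRNA (15.4%) and 5 with the 5 gRNAs (38.5%), where 2.39% and 7.44% of all tested genes fell, and none of the 13 rose. *Calr*, the lectin chaperone calreticulin, had 1046, 1227 and 1235 normalised CPM in control, 826, 772 and 834 in *Slc2a1* gRNA cells and 596, 640 and 591 in 5-gRNA cells. The 3 groups did not overlap, although none of the 13 genes passed between the deleted populations, where 2.31% of all tested genes did. *Calr* fell by 0.53 (SE 0.12, adjusted p = 0.0277) and 0.94 (SE 0.12, adjusted p = 0.000544). *Edem2*, which starts the mannose trimming that marks misfolded glycoproteins for degradation, fell by 0.44 (adjusted p = 0.0497) and 0.78 (adjusted p = 0.00154), and its relative *Edem1* fell with the 5 gRNAs by 0.57 (adjusted p = 0.0124). *Prkcsh*, the non-catalytic partner of *Ganab* in glucosidase II, fell with the 5 gRNAs by 0.36 (adjusted p = 0.0450). *Lman1*, a lectin that carries glycoproteins out of the ER, was the fifth to fall.

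In the dolichol and flippase list, *Srd5a3*, a polyprenol reductase, rose with the 5 gRNAs by 0.52 (adjusted p = 0.0247) and the other 6 of 7 did not pass. None of 5 further transferase subunits passed against control, although *Ost4*, a small subunit, was lower in 5-gRNA than in *Slc2a1* gRNA cells (-0.56, adjusted p = 0.0294). Among 11 other Golgi enzymes, the sialyltransferase *St3gal3* rose with the *Slc2a1* gRNA by 0.78 (adjusted p = 0.0327), and the polysialyltransferase *St8sia4* rose with the 5 gRNAs by 0.46 (adjusted p = 0.0254) and was higher than in *Slc2a1* gRNA cells by 0.87 (adjusted p = 0.00444). When 1 sample was left out at a time, *Calr* and *Edem2* kept their calls with the 5 gRNAs, with an adjusted p of at most 0.00909 and 0.0204, and every other call named from these lists, theirs with the *Slc2a1* gRNA included, was lost without at least 1 sample. The calls of *Hk2* (adjusted p = 0.0762), *Pgm1* (0.0654) and *St8sia4* (0.0623) with the 5 gRNAs were also lost with total count normalisation, and those of *Pgm1* (0.0929), *Cmas* (0.0625), *Lman1* (0.0737) and *St8sia4* (0.119) without the replicate block. The difference of *St8sia4* between the deleted populations was also lost without the block (0.0584). With only the 2 groups fitted, *Cmas*, *Lman1*, *Prkcsh* and *Ost4* lost their calls.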

How the data were processed

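Bulk RNA from 9 samples, 3 in each of 3 groups given by their labels, was measured. The authors prepared libraries with SMART-Seq V4, which does not mark strand, and quantified paired reads with Salmon 1.5.1 per the labels, and deposited a gene-level table per sample. From it, the estimated counts that the authors deposited were used for tests and the TPM that the authors deposited for levels, while lengths and effective lengths were not used. The annotation was not given in the sources used here. Of 53077 gene names, 49351 occur in GENCODE M21 (GRCm38), the source of the coordinates.

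Differences were tested on these counts, after rounding, with the quasi-likelihood method of edgeR 4.0.16 under R 4.3.3. Libraries were scaled by TMM, genes were filtered by the package default, and the replicate number entered as a block. All 9 samples shared 1 fit, p-values were adjusted by Benjamini-Hochberg over 13834 genes, and the threshold was 0.05. Standard errors were derived from the F statistic. Replicates of a group differed by more than sampling noise, with a chi-square per degree of freedom of 20.7 to 106. In simulated data of 5-gRNA against control cells over 13489 genes, the test found 39 of 100 genes changed 1.5-fold and 85 of 100 changed 2-fold. The simulation gave every gene the same relative spread and held no replicate effect, so these rates need not hold for the measured samples.

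The 46 genes, their steps and the further lists were chosen with earlier results of these data known. Members are given in full where they passed in at least 1 comparison, and up to 4 genes of each further list are named per comparison, those with the smallest adjusted p; some of these results are not reported here. Alternatives were DESeq2 1.42.0, no block, total count normalisation, other filters on low counts, fits of only 2 groups, limma 3.58.1 on log2(TPM + 1) and log2(TPM + 0.1), and leaving out each sample.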

Additional observations from a re-analysis of the deposited data

How the results depend on the processing

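The count of members changed with the *Slc2a1* gRNA against control, 5 of 44, was 8 without a low-count filter, 12 when just those 2 groups were fitted, and 0 with either limma fit of log2 TPM (pseudocounts of 1 and 0.1), where 14 and 16 members had an unadjusted p under 0.05. The share of all tested genes that passed moved too, from 4.64% to 5.47%, 16.7%, 0% and 0.376%. The count of members ranged from 0 to 7 when 1 sample was left out. The lowest count, 0, was found without any of the control replicates 1, 2 and 3 or *Slc2a1* gRNA replicates 1 and 2. With the 5 gRNAs against control, 12 became 3 with either limma fit (3.13% and 3.34% of all tested genes, against 15.9%), and 2 to 13 with 1 sample left out, the lowest without control replicate 3. Between the deleted populations, 2 became 1 with only the 2 groups compared, 0 with either limma fit (0.883%, 0.224% and 0.231% of all tested genes, against 2.31%) and 0 to 2 with 1 sample left out, the lowest without *Slc2a1* gRNA replicate 2. The causes of these differences were not tested, although a left-out sample also leaves fewer samples in the fit. DESeq2 gave 6, 17 and 2, where it called 9.07%, 18.9% and 5.61% of all tested genes.

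With no replicate block the counts were 5, 9 and 2, and *Gmppa* (adjusted p = 0.0522), *Galt* (0.0576) and *Alg3* (0.0562) lost their calls with the 5 gRNAs. Same-numbered samples correlated in their deviations from the group means with r of 0.111 to 0.215 for control and *Slc2a1* gRNA, -0.065 to 0.162 for control and 5-gRNA, and -0.107 to -0.034 for the deleted populations, so the pairing is not seen in every pair. Total count normalisation gave 0 members higher and 5 lower with the *Slc2a1* gRNA and 2 higher and 10 lower with the 5 gRNAs, and shifted the median gene by -0.10 and -0.04. Of all calls, 23.9%, 41.9% and 69.5% were then higher in the 3 comparisons, against 311 of 642, 1175 of 2204 and 188 of 319.

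The value of *Gnpnat1* with the *Slc2a1* gRNA turned to -0.053 and -0.055 in the limma fits, and that of *Alg3*, which ranged from -0.15 to 0.070 with 1 sample left out, to 0.070 without control replicate 2, 0.02 without *Slc2a1* gRNA replicate 2 and 0.01 without *Slc2a1* gRNA replicate 3, none of them past the threshold. *Gnpnat1* and *Ganab* with the 5 gRNAs passed in all 8 other settings and all 9 fits with a sample left out, with adjusted p of 3.07e-10 to 0.0265 and 2.84e-06 to 0.0497. At this depth, genes at 0 to 3 counts per library, *Gfpt2* and *Tusc3*, could not be compared.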
